A study of Mus musculus with 4 samples.

Results

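The mitochondrial respiratory chain genes were followed in lung fibroblasts exposed to 3 chemokines. Genes were taken from the deposited expression table by name: those starting with Nduf, Uqcr, Atp5 or mt-, those starting with Cox and a digit of 4 to 8, and Sdha, Sdhb, Sdhc, Sdhd, Cyc1 and Cycs. This gave 72 of the 2979 genes in the table, 67 encoded in the nucleus and 5 in mitochondrial DNA. The RNA came from fibroblasts, which make the matrix of connective tissue, and these were taken fresh from the lungs of BALB/c mice, wild-type and 4 weeks old. In the chemokine group (n = 2 libraries) the cells spent 3 hours with recombinant human chemokines, which were 8 nM CXCL1, 2 nM CXCL2 and 20 nM CXCL8, and in the control group (n = 2 libraries) the label gives control as the treatment. The 3 chemokines are neutrophil attractants that act on CXCR1 and CXCR2. They were human and the cells were murine, and since they form 1 treatment in the labels their effects cannot be told apart. Whether the libraries of a group came from separate cultures or animals is not stated, so each p-value covers the spread between the 4 libraries alone, and part or all of it may be technical.

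The respiratory chain sits in the inner mitochondrial membrane. Complexes I and II take electrons from NADH and succinate, complex III passes them to cytochrome c, and complex IV hands them to oxygen. Proton pumping by complexes I, III and IV drives complex V, the ATP synthase. Complexes I, III, IV and V are built from subunits of both genomes, while complex II and cytochrome c are wholly nuclear, so their assembly needs transcripts made in the nucleus and in the mitochondrion.

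The table is a list that the authors had already selected: the values of the 2 groups overlapped in none of the 2979 genes. The authors' RPKM values scale reads by gene length and library total. The length used can be far above that of the principal transcript, as for Atp5f1 with 4105 implied bases against 1604. The values fix a length only up to a whole-number factor. Where the implied length differs from the annotated one, as for Atp5l, the length used is therefore uncertain. Abundance below means RPKM, and its order between genes depends on the length used. Implied library totals were 28603764 and 33854493 reads in chemokine libraries and 31859688 and 36863654 reads in control libraries. Of 12 fibroblast markers 6 were in the table, all higher in chemokine libraries, among them Col1a1, a chain of type I collagen, at 568 and 540.3 RPKM in chemokine libraries, against 471 and 476 RPKM in control libraries. Markers of other cells moved too. The 3 of 13 macrophage and monocyte markers in the table, Itgam, Mrc1 and Ear2, summed to 22.9 and 22.9 RPKM in chemokine libraries and to 26.2 and 25.9 RPKM in control libraries, with Ear2 higher in chemokine libraries and the other two lower. The 2 of 9 endothelial markers in the table, Pecam1 and Sox18, summed to 5.43 and 6.16 RPKM in chemokine libraries and to 3.26 and 3.18 RPKM in control libraries. The 2 of 10 epithelial markers in the table moved in opposite directions and summed to 10.1 and 10.5 RPKM in chemokine libraries and to 8.47 and 8.31 RPKM in control libraries. Krt18 made up most of that sum and was higher in chemokine libraries, while the surfactant gene Sftpb had 0.391 and 0.331 RPKM in chemokine libraries, against 1.18 and 1.24 RPKM in control libraries. Smooth muscle and pericyte markers had 3 of 6 in the table, with sums of 2913 and 2963 RPKM in chemokine libraries and 2641 and 2581 RPKM in control libraries. Acta2 carried nearly all of it and was higher in chemokine libraries, as was Cnn1, while Myh11 was lower, at 12.0 and 10.2 RPKM in chemokine libraries, against 14.4 and 14.0 RPKM in control libraries. Pf4, the only red cell or platelet marker of 6 in the table, stood at 405.9 and 475 RPKM in chemokine libraries and at 356 and 365 RPKM in control libraries. None of the 5 neutrophil and 3 mesothelial markers was in the table. No marker in the table was at 0, and the part these cells have in the results below was not tested. In such bulk samples, fewer cells of a type and less RNA per cell cannot be told apart.

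Of 108 protein-coding names that the same rule finds in the GENCODE M21 annotation of build GRCm38, 72 were in the table. Complex I had 31 of 36 subunit genes, complex II 2 of 4, complex III 7 of 9, complex IV 13 of 20, complex V 12 of 17 and the mitochondrial genome 5 of 13. Ndufaf3 was the only listed complex I assembly factor of 8 whose names start with Nduf, and Cycs the only annotated cytochrome c gene in this rule. Genes outside the table were not analysed here, among them Ndufs1, Sdha, Sdhd, Cyc1, Uqcrc2, Atp5a1, Atp5b, mt-Co1 and mt-Cytb. No statement about a whole complex is therefore possible.

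Many respiratory chain promoters are known to hold sites for the nuclear respiratory factor NRF-1 and for ETS factors such as GABP, so promoter windows were searched for their core letters. RefSeq start sites on GRCm38.p6 gave 62 windows for 58 of the 72 genes, each with 250 bases before and 50 bases after the start. The NRF-1 core GCATGCGC, on either strand, was in 11 of 62 windows (17.7%), against 6.85% of 1081 windows of listed genes higher in chemokine libraries, 5.77% of 1698 windows of listed genes lower there and 2.71% of all 32851 mouse windows. The ETS core CCGGAAG was in 14 of 62 windows (22.6%), against 23.8%, 13.9% and 8.86% of the same 3 sets. The YY1 motif AAGATGGC was in 7 of 62 windows (11.3%), against 5.74%, 4.71% and 2.75%. Of the 58 genes, 27 had at least 1 of the 3 motifs and 31 had none. A match describes the letters of a window and is not evidence of binding. Printed here are the 250 bases before the start for 1 gene with an NRF-1 core in each class shown, with NRF-1 and ETS cores in capitals. These genes were taken by the largest log2 fold change among the windows considered for printing, which were not all windows. A gene of the same class with a core and a larger change may therefore be missing. In Cox6a1 and Atp5k the core overlaps its own reverse complement.
Ndufa8, chr2:36049339-36049588, minus strand: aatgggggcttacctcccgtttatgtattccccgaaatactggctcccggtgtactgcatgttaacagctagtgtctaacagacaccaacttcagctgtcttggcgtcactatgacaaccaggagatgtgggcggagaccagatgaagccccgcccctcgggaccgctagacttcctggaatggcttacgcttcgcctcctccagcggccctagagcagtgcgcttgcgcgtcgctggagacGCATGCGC
Sdhb, chr4:140961021-140961270, plus strand: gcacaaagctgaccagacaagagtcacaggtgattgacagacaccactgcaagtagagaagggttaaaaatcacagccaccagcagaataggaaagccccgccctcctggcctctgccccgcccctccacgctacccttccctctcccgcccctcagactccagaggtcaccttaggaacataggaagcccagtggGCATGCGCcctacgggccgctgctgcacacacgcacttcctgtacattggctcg
Cox6a1, chr5:115348959-115349208, minus strand: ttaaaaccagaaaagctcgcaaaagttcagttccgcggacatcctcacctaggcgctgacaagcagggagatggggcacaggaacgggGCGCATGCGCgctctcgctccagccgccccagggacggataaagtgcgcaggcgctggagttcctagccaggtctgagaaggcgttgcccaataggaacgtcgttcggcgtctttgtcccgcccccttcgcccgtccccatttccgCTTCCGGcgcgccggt
Atp5k, chr5:108434400-108434649, minus strand: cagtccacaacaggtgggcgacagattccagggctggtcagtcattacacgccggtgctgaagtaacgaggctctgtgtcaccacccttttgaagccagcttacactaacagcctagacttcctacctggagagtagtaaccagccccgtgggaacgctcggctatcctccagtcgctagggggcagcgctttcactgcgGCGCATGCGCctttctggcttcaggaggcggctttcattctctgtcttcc
Cycs, chr6:50566570-50566819, minus strand: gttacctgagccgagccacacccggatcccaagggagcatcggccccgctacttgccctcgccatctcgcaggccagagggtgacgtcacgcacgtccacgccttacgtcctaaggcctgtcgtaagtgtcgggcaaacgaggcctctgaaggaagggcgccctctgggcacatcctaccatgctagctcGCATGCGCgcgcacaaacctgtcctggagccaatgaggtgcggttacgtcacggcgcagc

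All 67 nuclear genes were higher in chemokine than in control libraries, by modest amounts. The median fold in the authors' deposited table was 1.29, and the fold ran from 1.13 for Atp5c1 to 1.47 for Atp5k. Of the 5 mitochondrially encoded transcripts 4 were higher and mt-Nd5 was lower. By limma on log2(RPKM + 1), with Benjamini-Hochberg adjustment over the 2956 genes tested, 71 of the 72 genes were higher and 1 was lower at an adjusted p under 0.05. Among all tested genes 42.8% were higher and 57.2% lower at that threshold, so that every gene tested passed it, and the size and direction of a change carry more than its call. The median log2 fold change of the nuclear genes was 0.35 (range 0.17 to 0.55), against -0.23 for all tested genes and 0.31 for the tested genes that were higher. Cytosolic ribosomal protein genes had a median log2 fold change of 0.35 over 76 genes, and mitochondrial ribosomal protein genes had 0.35 over 32, so the median did not set the respiratory chain genes apart from these groups. When a fold above 1.2 was required by limma's treat, 8 genes passed, against 3.28% of all tested genes: Ndufa3, Uqcr11, Uqcrq, Cox6a1, Ndufa4l2, Cox4i1, Atp5k and Atp5e. Of the 1264 tested genes that were higher 97 passed, of the 76 cytosolic ribosomal protein genes 7, and of the 32 mitochondrial ribosomal protein genes 4. No respiratory chain gene passed in the lower direction, where 10.5% of all tested genes did. The count of 8 respiratory chain genes was 2 without control 1 (1.12% of all tested genes), 1 without control 2 (1.26%) and 46 without chemokine 1 (16.5%). When libraries were rescaled by median ratios over the listed nuclear genes it was 68, against 41.7% of all tested genes.

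**Figure D1:**
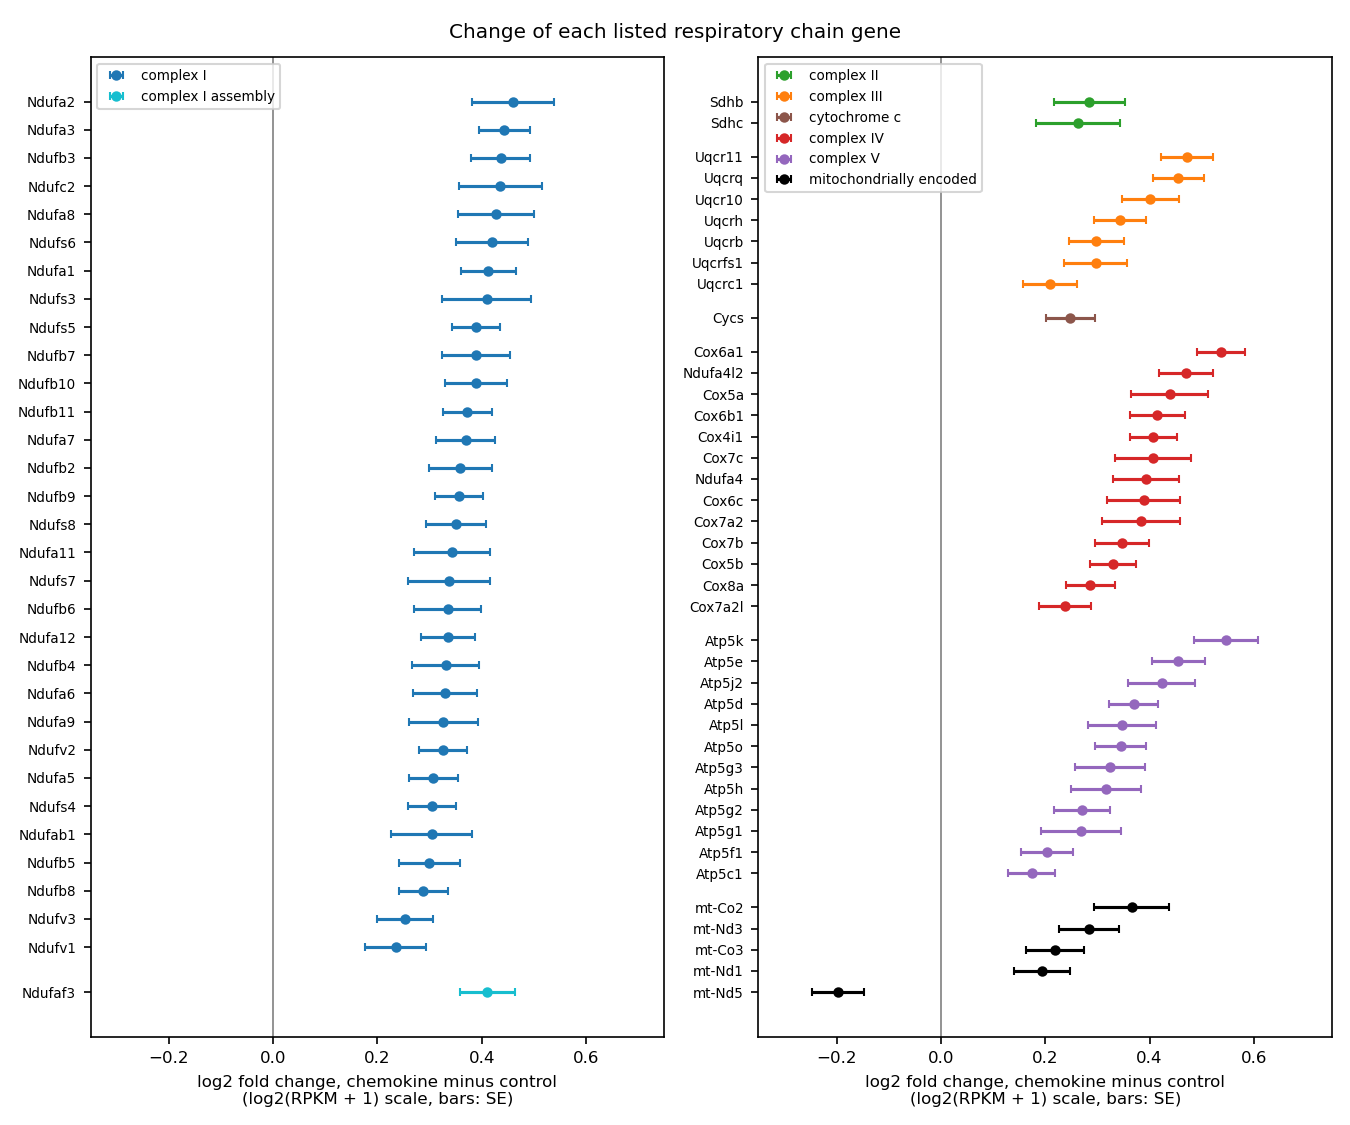
Log2 fold change of each of the 72 genes, chemokine minus control, on the log2(RPKM + 1) scale, grouped by complex. Points are limma estimates from 2 libraries per group, bars are SE. The nuclear genes lie between 0.17 and 0.55, and mt-Nd5 is the only gene below 0.

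The sum over the 67 nuclear genes was 5638 and 6084 RPKM in chemokine libraries, against 4542 and 4501 RPKM in control libraries. The selection of the table fixes that these sums do not overlap, so nothing is drawn from a test of them. The control libraries lay close together and the chemokine libraries further apart. Relative to the control mean, the median log2 ratio of the nuclear genes was 0.31 in chemokine 1 and 0.43 in chemokine 2. Chemokine 2 was the higher of the 2 chemokine libraries in 54 of the 67 nuclear genes (80.6%), and in 74.8% of all tested genes that were higher in chemokine libraries. In 54 of the 67 (80.6%), the gap between the groups exceeded the distance between the chemokine libraries, as it did in 88.4% of all tested genes that were higher.

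**Figure D2:**
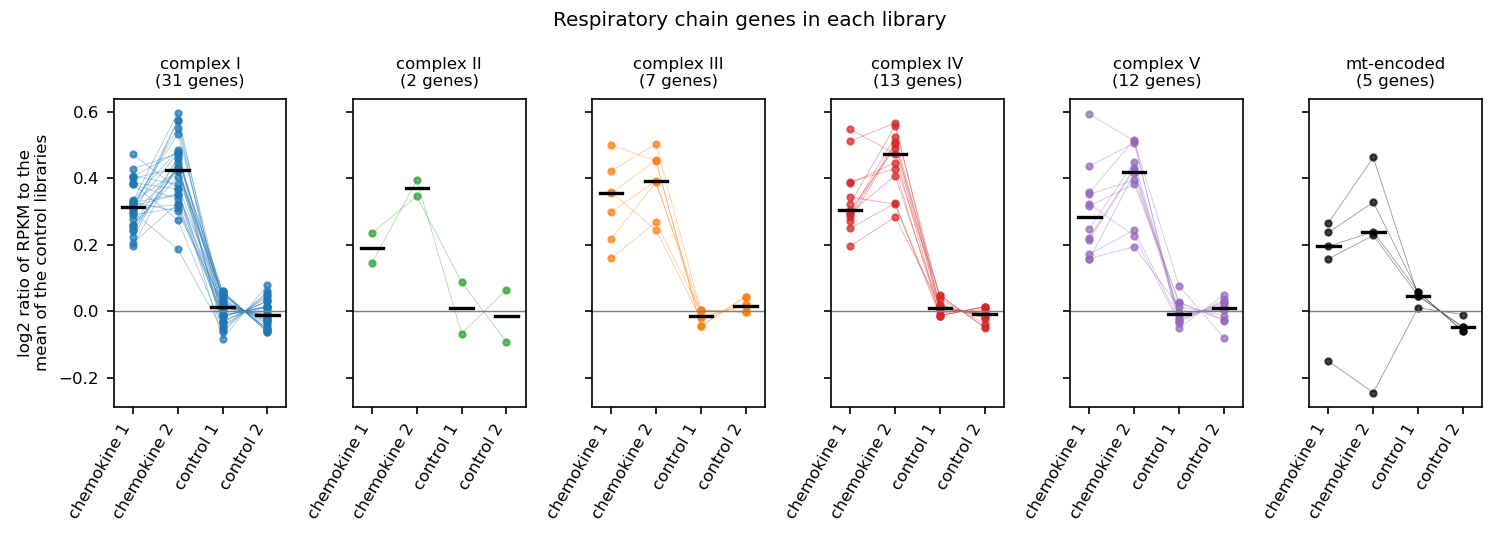
Log2 ratio of each gene's RPKM to the mean of the 2 control libraries, by library, for complexes I to V and the mitochondrially encoded genes. Each point is a gene, lines join the same gene and bars are medians. Most nuclear genes sit higher in chemokine 2 than in chemokine 1. For each nuclear gene both chemokine libraries lie above both controls, which the selection of the table fixes for any higher gene.

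The change went with gene length across the whole table. Of the tested genes with under 1000 bases of joined exons 96.6% were higher in chemokine libraries, of those with 1000 to 2000 bases 97.1%, of those with 2000 to 4000 bases 88.1%, and of longer genes 13.6%. The nuclear respiratory chain genes are short, with a median of 1587 bases, and 17, 28, 14 and 8 of them fell in these 4 classes. All of them were higher in each class, including all 8 of the longest class, where 13.2% of the other genes were. Of these 8, Atp5l, Ndufb7, Ndufb5, Atp5f1 and Uqcrc1 have short principal transcripts, of 544 to 1653 bases. Among genes under 1000 bases the median log2 fold change was 0.42 for the nuclear members and 0.36 for the other genes, and among those of 1000 to 2000 bases it was 0.35 and 0.33. With the length of the principal transcript in place of all exons, 43 nuclear members were under 1000 bases, where 97.4% of all tested genes were higher, and 19 were between 1000 and 2000 bases, where 96.2% were. The class of 2000 to 4000 bases held 3 members and 51.0% of its genes were higher, and the longest class held 2 members and 5.4% of its genes were higher. Across the 67 nuclear genes, Pearson's r between the log2 fold change and log2 joined exon length was -0.51 (Spearman's rho -0.51), and across 2953 tested genes it was -0.73 (rho -0.72). These points share the same 4 libraries and are no independent replicates.

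**Figure D3:**
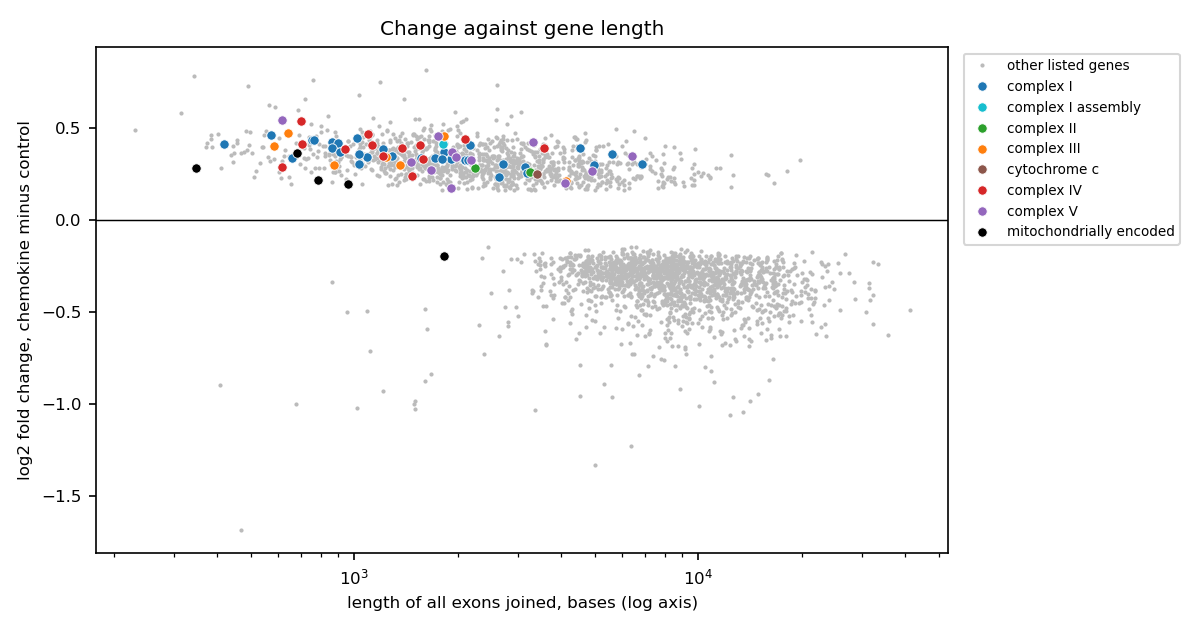
Log2 fold change against the length of all exons joined (log axis), for the respiratory chain genes by complex and for the other tested genes in grey. The short end of the table lies almost wholly above 0 and the long end mostly below it. The nuclear respiratory chain genes lie within the upper band.

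To set aside this trend, a smooth function of length and GC content, fitted over all tested genes, was subtracted from each library. The fit rests on the selected list, which has no fold between 0.906 and 1.12, so calls after removal depend on that selection. Most listed long genes were lower, and removal raised members with long joined exons, as for Atp5l from 0.35 to 0.63. The principal transcript of Atp5l has only 544 bases. How far the selection shaped the trend was not tested. After removal the median log2 fold change of the nuclear genes was 0.08. In that fit 15 of the 72 genes were higher at an adjusted p under 0.05 by limma, against 16.6% of all tested genes, and 1 was lower, against 17.5%. Of the nuclear genes 59 stayed above 0 (88.1%) and 8 did not, where 51.2% of all tested genes and 74.5% of those higher before removal were above 0. With the length of the principal transcript Atp5l was at 0.04 (adjusted p = 0.504 by limma). The median of the nuclear genes was then 0.05, 7 genes were higher (12.1% of all tested genes) and 2 were lower (13.2%). The share called higher was thus near the background with either length, and no finding about the group follows from these counts. Genes past the threshold with both lengths were Uqcrq, Ndufb2, Ndufab1, Atp5g1, Cycs and mt-Nd3 on the higher side and mt-Nd5 on the lower side. Why the change follows length was not tested.

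**Figure D4:**
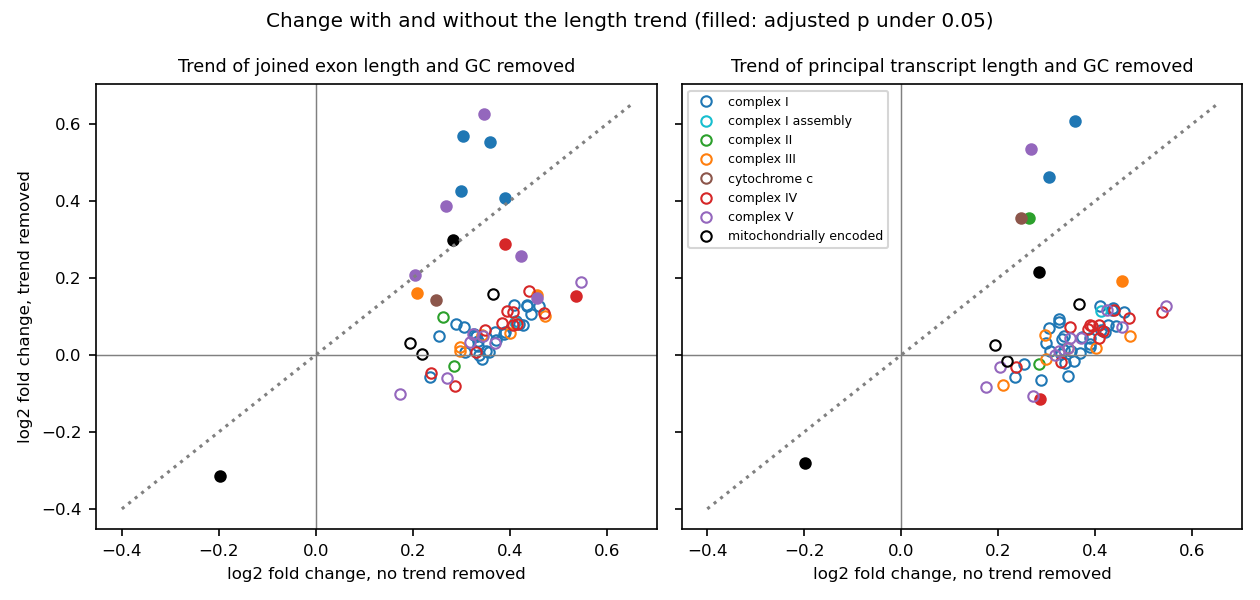
Log2 fold change of each respiratory chain gene with the length and GC trend removed (y axis) against the value before removal (x axis), for joined exon length (left) and principal transcript length (right). Filled points had an adjusted p under 0.05 by limma after removal, and the dotted line marks equality. Most genes lie between 0.17 and 0.55 on the x axis and near 0 on the y axis.

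In complex I, all 31 listed subunit genes were higher in chemokine libraries, with a median log2 fold change of 0.35 and a range of 0.23 to 0.46. The 5 listed nuclear core genes, which carry the flavin, the iron-sulphur clusters or their scaffold, had a median of 0.34, and the 26 supernumerary genes, which surround and stabilise that core, had 0.36. Ndufa2, a thioredoxin-fold subunit, had 110.1 and 132 RPKM in chemokine libraries, against 86.7 and 88.4 RPKM in control libraries, a log2 fold change of 0.46 ± 0.08 (SE, adjusted p = 0.000725 by limma). Ndufa3, a small membrane subunit, had 55.3 and 57.0 RPKM in chemokine libraries, against 42.1 and 40.0 RPKM in control libraries, a log2 fold change of 0.44 ± 0.05 (SE, adjusted p = 0.000212 by limma). Ndufb3, a subunit of the membrane arm, had 66.7 and 70.3 RPKM in chemokine libraries, against 48.3 and 52.5 RPKM in control libraries, with 0.44 ± 0.06 (SE, adjusted p = 0.000284 by limma). The selection of the table fixes that the groups do not overlap in these 3 genes. Ndufa2 was set further apart between its chemokine libraries than the others. Ndufb9 (chr15:58933756-58939488, plus strand) and Ndufa6 (chr15:82350140-82354322, minus strand), subunits of the LYR protein family, were among the most abundant. Ndufb9 had 123 and 119 RPKM in chemokine libraries, against 94.9 and 93.2 RPKM in control libraries, and Ndufa6 had 105 and 116 RPKM in chemokine libraries, against 90.6 and 84.1 RPKM in control libraries. Their log2 fold changes were 0.36 ± 0.05 and 0.33 ± 0.06 (SE), with adjusted p of 0.000271 and 0.00104 by limma.

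Ndufv1, the core subunit that binds NADH and the flavin, had the smallest log2 fold change of complex I, 0.23 ± 0.06 (SE, adjusted p = 0.00411 by limma, and 0.0599 without control 1). The other core genes were Ndufs3 (0.41), Ndufs8 (0.35), Ndufs7 (0.34) and Ndufv2 (0.33), where the log2 fold change stands in brackets. Ndufs7 and Ndufs8 hold iron-sulphur clusters near the quinone site and Ndufv2 holds another close to the flavin. Further supernumerary genes with log2 fold changes above 0.35 were Ndufc2, Ndufa8, Ndufs6, Ndufa1, Ndufs5, Ndufb7, Ndufb10, Ndufb11, Ndufa7 and Ndufb2. Ndufa8, Ndufs5 and Ndufb7 encode subunits with twin cysteine motifs facing the intermembrane space. Smaller changes were seen for Ndufa11, Ndufb6, Ndufa12, Ndufb4, Ndufa9, Ndufa5, Ndufs4, Ndufab1, Ndufb5, Ndufb8 and Ndufv3, down to 0.25 for Ndufv3. After trend removal 4 genes of the complex passed, Ndufab1 at 0.57, Ndufb2 at 0.55, Ndufb5 at 0.43 and Ndufb7 at 0.41, and their annotated exons join to at least 4522 bases. By principal transcript length Ndufb5 and Ndufb7 were at 0.03 and 0.02 and did not pass (adjusted p = 0.773 and 0.867 by limma). Ndufab1, the acyl carrier protein that is also a complex I subunit, stood at 16.8 and 20.0 RPKM in chemokine libraries, against 14.3 and 15.1 RPKM in control libraries.

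Ndufaf3, an assembly factor of complex I and not part of the finished enzyme, was the least abundant member. It had 7.01 and 7.18 RPKM in chemokine libraries, against 5.21 and 4.96 RPKM in control libraries. Its log2 fold change was 0.41 ± 0.05 (SE, adjusted p = 0.000271 by limma) and 0.08 with the trend removed (adjusted p = 0.164). Its exons overlap those of Impdh2 on the opposite strand.

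Complex II, succinate dehydrogenase, links the tricarboxylic acid cycle to the chain. Sdhb, its iron-sulphur subunit, had 32.1 and 34.7 RPKM in chemokine libraries, against 29.0 and 25.6 RPKM in control libraries, and Sdhc, a membrane anchor, had 30.4 and 36.1 RPKM in chemokine libraries, against 26.2 and 28.7 RPKM in control libraries. The groups did not overlap, as in every gene of the table, though for Sdhc chemokine 1 lay closer to control 2 than to chemokine 2. Log2 fold changes were 0.28 ± 0.07 for Sdhb and 0.26 ± 0.08 for Sdhc (SE), with adjusted p of 0.00322 and 0.0112 by limma. With the trend removed Sdhb was at -0.03 and Sdhc at 0.10, neither past the threshold (adjusted p = 0.765 and 0.318). With principal transcript length Sdhc was at 0.36 and passed (adjusted p = 0.0237 by limma).

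All 7 listed genes of complex III were higher, with a median log2 fold change of 0.34 and a range of 0.21 to 0.47. Uqcr11, a small subunit, had 101 and 98.2 RPKM in chemokine libraries, against 69.5 and 73.9 RPKM in control libraries, with a log2 fold change of 0.47 ± 0.05 (SE, adjusted p = 0.000189 by limma). Uqcr10 had 98.9 and 106 RPKM in chemokine libraries, against 74.9 and 79.7 RPKM in control libraries, with 0.40 ± 0.05 (SE, adjusted p = 0.000321 by limma). Uqcrh, the acidic hinge protein that helps cytochrome c dock, was the most abundant, with 132 and 141 RPKM in chemokine libraries, against 106 and 108 RPKM in control libraries, and 0.34 ± 0.05 (SE, adjusted p = 0.000404 by limma). Uqcrb had 102 and 94.2 RPKM in chemokine libraries, against 78.4 and 80.7 RPKM in control libraries, and 0.30 ± 0.05 (SE, adjusted p = 0.000839 by limma). Uqcr11 and Uqcrb are 2 of the genes in which chemokine 1 was the higher chemokine library. The catalytic Rieske iron-sulphur protein, Uqcrfs1, had a log2 fold change of 0.30, and the core protein Uqcrc1 had 0.21, the smallest of the complex.

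Uqcrq (chr11:53427922-53430831, minus strand), a further small subunit of complex III, had 67.4 and 71.3 RPKM in chemokine libraries, against 50.4 and 50.2 RPKM in control libraries. The log2 fold change was 0.46 ± 0.05 (SE, adjusted p = 0.000189 by limma). Trend removal left 0.16 (adjusted p = 0.0130), and 0.19 remained with principal transcript length (adjusted p = 0.00685). Uqcrc1 passed with joined exons only, at 0.16 (adjusted p = 0.0382), and was at -0.08 by principal transcript length (adjusted p = 0.179 by limma).

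Cycs encodes cytochrome c, the mobile carrier between complexes III and IV that also triggers apoptosis when released. It had 48.2 and 50.1 RPKM in chemokine libraries, against 41.1 and 41.4 RPKM in control libraries. Its log2 fold change of 0.25 ± 0.05 (SE, adjusted p = 0.00110 by limma) was smaller than the median of the nuclear genes. With the trend removed it was 0.14 with joined exons (adjusted p = 0.0209) and 0.36 with principal transcript length (adjusted p = 0.00113). Of its 31-base words 29.4% also occur in other annotated genes, mainly in Gm10053.

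Complex IV, cytochrome c oxidase, had a median log2 fold change of 0.39 over 13 genes, with a range of 0.24 to 0.54 that overlaps those of the other complexes. Cox6a1 (chr5:115345642-115348981 on GRCm38, minus strand), the widely expressed form of a subunit near the dimer interface, had 279 and 289.7 RPKM in chemokine libraries, against 197 and 194 RPKM in control libraries. Its log2 fold change was 0.54 ± 0.05 (SE, adjusted p = 0.000142 by limma), 0.15 with the trend removed (adjusted p = 0.0185), and 0.11 by principal transcript length (adjusted p = 0.0573). Of its 31-base words 18.5% also occur in an annotated processed pseudogene. Cox5a, a nuclear subunit on the matrix side, had 182 and 214 RPKM in chemokine libraries, against 149 and 141 RPKM in control libraries, a log2 fold change of 0.44 ± 0.07 (SE, adjusted p = 0.000703 by limma). Cox6b1, which faces the intermembrane space, had 272 and 284 RPKM in chemokine libraries, against 215 and 201 RPKM in control libraries, a log2 fold change of 0.42 ± 0.05 (SE, adjusted p = 0.000263 by limma). Cox8a, a small membrane subunit, had the highest mean RPKM of the listed nuclear genes of the chain. It had 312 and 329 RPKM in chemokine libraries, against 262 and 263 RPKM in control libraries. Its log2 fold change was 0.29 ± 0.05 (SE, adjusted p = 0.000630 by limma), but -0.08 with the trend removed, and it passed as lower by principal transcript length at -0.11 (adjusted p = 0.0479).

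Ndufa4 and Ndufa4l2 are paralogues that bear complex I names. Ndufa4 is a subunit of complex IV, and Ndufa4l2 is known as a target of hypoxia-inducible factor. Ndufa4l2 was rarer, with 13.8 and 13.1 RPKM in chemokine libraries, against 9.35 and 9.52 RPKM in control libraries, a log2 fold change of 0.47 ± 0.05 (SE, adjusted p = 0.000209 by limma). Ndufa4 had 102 and 116 RPKM in chemokine libraries, against 82.7 and 81.9 RPKM in control libraries, and 0.39 ± 0.06 (SE, adjusted p = 0.000580 by limma). Both rose, and neither passed with the trend removed (adjusted p = 0.110 for Ndufa4l2 and 0.0726 for Ndufa4 by limma). The other listed genes were Cox4i1, which takes part in regulation by ATP, Cox7c, Cox6c, Cox7a2, Cox7b, Cox5b and Cox7a2l, at log2 fold changes of 0.24 to 0.41. Cox7a2l, which joins complexes III and IV in supercomplexes, had the smallest. Besides Cox6a1, Cox6c passed with the trend removed, at 0.29, but not by principal transcript length, at 0.08 (adjusted p = 0.261 by limma).

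Complex V, the ATP synthase, had a median log2 fold change of 0.33 over 12 genes and a range of 0.17 to 0.55. Atp5k (chr5:108433244-108434448, minus strand), subunit e, which helps the enzyme dimerise, had 75.2 and 71.0 RPKM in chemokine libraries, against 52.5 and 47.1 RPKM in control libraries, a log2 fold change of 0.55 ± 0.06 (SE, adjusted p = 0.000212 by limma). Atp5e, the epsilon subunit of the central stalk, had 30.9 and 32.4 RPKM in chemokine libraries, against 22.4 and 23.3 RPKM in control libraries, a log2 fold change of 0.46 ± 0.05 (SE, adjusted p = 0.000212 by limma). Atp5j2, subunit f, had 32.8 and 36.7 RPKM in chemokine libraries, against 24.7 and 26.5 RPKM in control libraries, a log2 fold change of 0.42 ± 0.06 (SE, adjusted p = 0.000462 by limma). In these 3 genes the lower chemokine library was above the higher control library by more than either group's own spread. The gap exceeded the spread of the chemokine libraries in 9 of the 12 genes, and in 88.4% of all tested genes that were higher. Atp5l, subunit g, was the most abundant of the complex, with 280.3 and 322 RPKM in chemokine libraries, against 234 and 238 RPKM in control libraries, and 0.35 ± 0.07 (SE, adjusted p = 0.00111 by limma). Atp5h, subunit d, had 101 and 117 RPKM in chemokine libraries, against 86.4 and 87.5 RPKM in control libraries, and 0.32 ± 0.07 (SE, adjusted p = 0.00181 by limma). In Atp5h and Atp5l chemokine 2 lay well above chemokine 1.

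Atp5g1, Atp5g2 and Atp5g3 encode the same mature subunit c, which forms the proton-carrying ring, behind different import sequences. Their levels differed widely. Atp5g3 had 238 and 275 RPKM in chemokine libraries, against 204 and 205 RPKM in control libraries, Atp5g2 had 62.3 and 58.3 RPKM in chemokine libraries, against 48.6 and 51.0 RPKM in control libraries, and Atp5g1 had 15.4 and 18.5 RPKM in chemokine libraries, against 13.7 and 14.0 RPKM in control libraries. All 3 rose by similar amounts, with log2 fold changes of 0.32 ± 0.07, 0.27 ± 0.05 and 0.27 ± 0.08 (SE) and adjusted p of 0.00163, 0.00128 and 0.00795 by limma. Trend removal set them apart, with 0.05 for Atp5g3, -0.06 for Atp5g2 and 0.39 for Atp5g1, of which Atp5g1 passed (adjusted p = 0.00763 by limma). Reads of Atp5g2 are uncertain, since 40.2% of its 31-base words occur in other annotated genes, and for Atp5g1 the share was 14.1% and for Atp5g3 it was 0%. The log2 fold changes of other stalk genes were Atp5d (delta) 0.37, Atp5o (the oligomycin sensitivity protein) 0.34, Atp5f1 (subunit b) 0.20 and Atp5c1 (gamma) 0.17, the least of any nuclear gene. Atp5f1 did not pass without control 1 (adjusted p = 0.0617) and Atp5c1 did not pass without control 2 (adjusted p = 0.0861 by limma). In complex V, Atp5l, Atp5g1, Atp5j2, Atp5f1 and Atp5e passed with the trend removed, of which Atp5g1 also passed with principal transcript length.

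Mitochondrial DNA encodes subunits of complexes I, III, IV and V, read from both strands as long precursors that are then cut into single transcripts. The 5 listed transcripts each had a higher RPKM than any listed nuclear gene of the chain, with the lengths used by the authors. Their sum was 16920 and 18267 RPKM in chemokine libraries, against 15242 and 14246 RPKM in control libraries. These 5 transcripts took 1.361% of all implied reads in chemokine 1 (95% Wilson interval 1.357 to 1.365) and 1.449% in chemokine 2 (1.445 to 1.453), against 1.253% in control 1 (1.249 to 1.257) and 1.177% in control 2 (1.174 to 1.181). The intervals cover counting error only. The ratio of the mitochondrial to the nuclear sum was 3.00 and 3.00 in chemokine libraries, against 3.36 and 3.17 in control libraries.

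Among the mitochondrial transcripts 4 rose and 1 fell. On the mitochondrial genome of GRCm38 all 5 lie on the plus strand, mt-Nd1 at chrM:2751-3707, mt-Co2 at chrM:7013-7696, mt-Co3 at chrM:8607-9390, mt-Nd3 at chrM:9459-9806 and mt-Nd5 at chrM:11742-13565. mt-Co2, subunit 2 of complex IV, which receives electrons from cytochrome c, had 7184 and 8231 RPKM in chemokine libraries, against 6167 and 5776 RPKM in control libraries, a log2 fold change of 0.37 ± 0.07 (SE, adjusted p = 0.00125 by limma). mt-Nd3, a membrane subunit of complex I, had 1016 and 1082 RPKM in chemokine libraries, against 897 and 827 RPKM in control libraries, a log2 fold change of 0.28 ± 0.06 (SE, adjusted p = 0.00146 by limma). mt-Co3, subunit 3 of complex IV, had 4856 and 5007 RPKM in chemokine libraries, against 4416 and 4066 RPKM in control libraries, a log2 fold change of 0.22 ± 0.06 (SE, adjusted p = 0.00453 by limma). Chemokine libraries were above control libraries in each of these 3, which the selection of the table fixes for any higher gene. mt-Nd1, a complex I subunit near the quinone site, had 2896 and 3041 RPKM in chemokine libraries, against 2681 and 2511 RPKM in control libraries, a log2 fold change of 0.19 ± 0.05 (SE, adjusted p = 0.00688 by limma). mt-Co3 and mt-Nd1 did not pass without control 2 (adjusted p = 0.115 and 0.139 by limma). mt-Nd5, a proton-pumping subunit of complex I, had 967 and 906 RPKM in chemokine libraries, against 1081 and 1066 RPKM in control libraries, a log2 fold change of -0.20 ± 0.05 (SE, adjusted p = 0.00435 by limma).

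**Figure D5:**
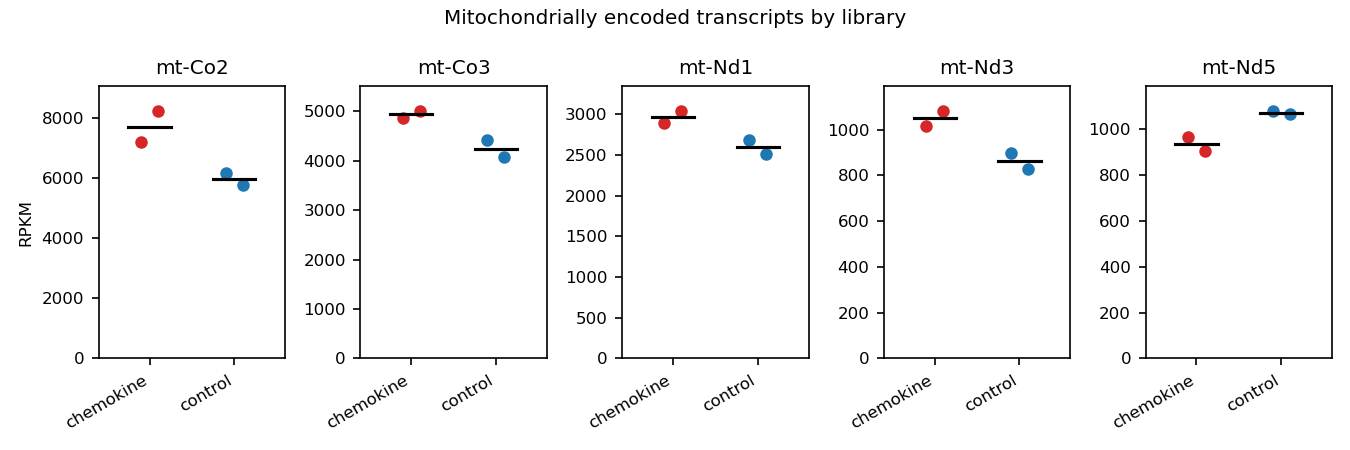
RPKM of the 5 mitochondrially encoded transcripts in each library, with each panel on its own scale from 0. Points are libraries and bars are means of 2. Chemokine libraries are higher for mt-Co2, mt-Co3, mt-Nd1 and mt-Nd3 and lower for mt-Nd5. The groups do not overlap, as in every gene of the table.

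The fall of mt-Nd5 depended on the scaling between libraries. When libraries were rescaled by median ratios over the listed nuclear genes, which moved the median log2 fold change of all tested genes to -0.01, against -0.23 before, mt-Nd5 was at 0.04 (adjusted p = 0.596 by limma). It was at -0.19 without control 1 (adjusted p = 0.0523 by limma). Ratios within a library do not depend on that scaling. The ratio of mt-Nd5 to mt-Nd1 was 0.334 and 0.298 in chemokine libraries, against 0.403 and 0.425 in control libraries, and that of mt-Co2 to mt-Nd5 was 7.43 and 9.09 in chemokine libraries, against 5.70 and 5.42 in control libraries. The table lists only genes whose groups do not overlap, and mt-Nd5 moved against the others. These ratios could therefore not overlap, and nothing is drawn from a test of them. With the length and GC trend removed, mt-Nd3 was at 0.30 and mt-Nd5 at -0.31 (adjusted p = 0.00416 and 0.00391 by limma), and mt-Co2 at 0.16 did not pass (adjusted p = 0.0561). mt-Nd5 is the longest of the 5, at 1824 bases, and its exon overlaps that of mt-Nd6 on the opposite strand.

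How reads were shared among near-identical copies is not given in the sources used here and bears on the mitochondrial transcripts. All 31-base words of mt-Co2, 99.9% of those of mt-Co3 and 98.1% of those of mt-Nd3 also occur in other annotated genes, mainly the nuclear pseudogenes Gm28661, Gm28437 and Gm28438. For mt-Nd5 the share was 16.8% and for mt-Nd1 it was 0%. Levels of mt-Co2, mt-Co3 and mt-Nd3 are therefore uncertain. Of the nuclear genes 30 shared at least 10% of their words, led by Atp5o at 49.6%, and 22 of the 72 genes overlap an exon on the opposite strand, whose reads need the strand setting to be told apart.

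Other genes of mitochondrial function were described from 6 lists with 153 genes in all, of which 40 were tested, 33 higher and 7 lower. Among all tested genes 42.8% were higher and 57.2% lower. Of 46 assembly factors of complexes I to V 8 were tested and all were higher, with a median log2 fold change of 0.34, and 4 of the 8 with the trend removed. They included Coa3, a factor for mt-Co1 maturation (0.37), Uqcc3, needed for complex III (0.37), Higd1a, a hypoxia-induced supercomplex factor (0.36), and Cox17, the copper chaperone of complex IV (0.35). Of 33 protein import genes 14 were tested and all were higher, 4 of them with the trend removed, with a median of 0.29, led by Timm13 (0.42), a chaperone between the membranes, the small outer membrane import subunits Tomm6 (0.41) and Tomm7 (0.37), and Pam16 of the import motor (0.39). Of 13 carrier and pore genes 7 were tested and all were higher, 3 of them with the trend removed, with a median of 0.23. The largest were the oxoglutarate carrier Slc25a11 (0.37), the adenine nucleotide carriers Slc25a4 (0.30) and Slc25a5 (0.23), and the outer membrane channel Vdac3 (0.25). Calls in these lists passed limma's adjusted p of 0.05, as did every gene tested.

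Of 19 genes of the tricarboxylic acid cycle 4 were tested. Fh1 (fumarase, 0.27), Suclg1 (a succinyl-CoA ligase subunit, 0.21) and Mdh2 (malate dehydrogenase, 0.18) were higher, and Ogdh (oxoglutarate dehydrogenase, -0.29) was lower. Of 24 genes of mitochondrial DNA expression only Slirp, which stabilises mitochondrial messengers, was tested, at 0.28. Of 18 regulators of mitochondrial gene expression 6 were tested, and all 6 were lower, with a median of -0.31. Ncor1, a nuclear receptor corepressor, had 7.13 and 6.53 RPKM in chemokine libraries, against 11.1 and 11.4 RPKM in control libraries, a log2 fold change of -0.65 ± 0.06 (SE, adjusted p = 0.000142 by limma). The corepressor Nrip1 was at -0.36, the GABP subunit Gabpb2 at -0.34, and Prkaa2, a catalytic subunit of AMP-activated kinase, at -0.29. Pprc1 and Gabpa were the other two. These 6 genes have at least 5687 bases of joined exons, and with the trend removed only Ncor1 passed, at -0.29 (adjusted p = 0.00141 by limma). Over the 6 lists 13 of the 40 genes were higher and 1 was lower with the trend removed, against 16.6% and 17.5% of all tested genes.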

How the data were processed

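RNA sequencing of 4 libraries was analysed, 2 of chemokine-treated and 2 of control fibroblasts, grouped and numbered by their titles. The submitters' processing notes name TopHat2 2.0.7, DESeq2 and GRCm38/mm10, with no role. How reads were counted, on which annotation and strand, and how genes were selected was not given in the sources used here. RPKM is the unit of the authors' deposited values, which was worked out from the values. Whole reads were recovered for all 2979 genes, with library totals of 28603764 to 36863654 reads. For 1176 genes the implied length equals the GENCODE M21 exon length, which gave whole reads within 0.0001 reads. Only there are reads certain. The deposited fold is a ratio of chemokine over control by the authors.

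With limma 3.58.1 in R 4.3.3, a moderated test with a mean-variance trend was run on log2(RPKM + 1) for the 2956 genes whose mean reached 1 RPKM, with Benjamini-Hochberg adjustment over these genes, two-sided, at a threshold of 0.05. Fold changes on this scale understate the change of low genes. All 72 respiratory chain genes passed the filter. A fold of 1.2 was tested with limma's treat. Length and GC trends were removed per library with mgcv 1.9.3. Both steps were tested on simulated data, in which genes were not selected for groups without overlap. The simulation therefore does not cover the selection of this table. Sums and ratios were computed with Python 3.11.15 with pandas 2.3.3 and SciPy 1.17.1. For those of the respiratory chain genes an exact permutation test gave p = 0.333 each. That is the smallest value possible with 2 libraries per group, so nothing is drawn from it. The respiratory chain genes, the 6 lists of other mitochondrial genes and the 8 lists of cell markers were chosen with earlier results of these data known. Every respiratory chain gene in the table is named. Values in each library are given for the mitochondrial transcripts, for those lower in chemokine libraries, and per complex for the 3 most abundant and the 3 with the largest change. Values of Ndufab1, Ndufa4, Atp5g1 and Atp5g2 were added after their values were seen. Up to 4 genes per other list are named by size of change, and Pprc1 and Gabpa were added after their values were seen. Alternatives were another pseudocount, other filters, another scaling, no mean-variance trend, a replicate block, trend removal and leaving out each library.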

Additional observations from a re-analysis of the deposited data

How the results depend on the processing

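Direction and call held for all 72 genes under a pseudocount of 0.1, no filter, no mean-variance trend, the replicate block, the crossed block and without either chemokine library, and for the 69 left at a mean of at least 10 RPKM. Leaving out a library gave 68 to 71 genes higher and 0 to 1 lower, 2 to 4 mitochondrial genes higher and 0 to 1 lower, 27 to 33 genes of the other lists higher, 1 to 46 past a fold of 1.2, and a nuclear median of 0.30 to 0.42. The lone library was assumed to vary like the other group. With the trend of joined exons removed, calls were 15 higher among the respiratory chain genes, 1 higher among the mitochondrial genes and 13 higher and 1 lower in the other lists, with 2 past a fold of 1.2. With the trend removed and the replicate block they were 18 higher, 2 mitochondrial higher, 14 higher and 2 lower in the other lists and 4 past a fold of 1.2, and the nuclear median was 0.077 in both. With principal transcript length, a choice made after seeing the data, they were 7 higher, 2 lower, 1 mitochondrial higher, 8 higher and 2 lower in the other lists and 1 past a fold of 1.2, and the median was 0.046. Median-ratio scaling gave 0 lower (0 mitochondrial), 3 lower in the other lists, 68 past a fold of 1.2 (41.7% of all tested genes) and a median of 0.58, and a mean of at least 10 RPKM left 3 lower in the other lists, since fewer genes were tested. Genes past a fold of 1.2 were 13 with a pseudocount of 0.1, 15 with the replicate block and 16 with the crossed block. The cause of these shifts was not tested. Same-numbered libraries deviated with a correlation of -0.16 over 2979 genes, so the numbers were not taken to pair them. The crossed pairing, added after seeing the data, gave 188 genes higher and 418 lower past a fold of 1.2 in the whole table, against 97 and 310 without a block.

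Signs turned with the joined-exon trend removed, and equally with the replicate block added, for Ndufa11 (-0.010), Ndufs7 (-0.00012), Sdhb (-0.028), Cox8a (-0.081), Atp5g2 (-0.060), Ndufv1 (-0.057), Cox7a2l (-0.047) and Atp5c1 (-0.10). By principal transcript length they turned for Ndufa11 (-0.054), Ndufb9 (-0.015), Ndufs7 (-0.022), Cox5b (-0.017), Atp5h (-0.0014), Uqcrb (-0.010), Ndufb8 (-0.066), Sdhb (-0.022), Cox8a (-0.11), Atp5g2 (-0.11), Ndufv3 (-0.024), Ndufv1 (-0.057), Cox7a2l (-0.032), mt-Co3 (-0.016), Uqcrc1 (-0.078), Atp5f1 (-0.031) and Atp5c1 (-0.083). Scaling turned mt-Nd5 to 0.035. Where the implied and annotated lengths agree, in 26 of the 72 genes, reads were at least 1085 per gene and library. The 2 libraries per group limit the precision.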
